A study of Glycine max with 12 samples.

Results

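Soybean roots were profiled by RNA-seq in WT plants and in a line labelled OX. Roots of both had either no aluminium (CK, 0 µM AlCl3) or 50 µM AlCl3 (Al). The 150 genes described here stood higher in OX than in WT without aluminium, and higher in WT with aluminium than without. Under aluminium their mean in OX was between 0.5 and 2 times that in WT. They were chosen from 56877 rows by values in CPM, a count scaled by the total of its library. A row needed a mean of 5 CPM or more in OX_CK, its lowest OX_CK library above its highest WT_CK library, and an OX_Al mean between 0.5 and 2 times the WT_Al mean. These conditions left 24880, then 1771, then 1496 rows. Each row was scored by the smaller of the ratios OX_CK to WT_CK and WT_Al to WT_CK, with 0.5 CPM added to every mean, and 428 rows scored 2 or more. The 150 of highest score are the genes described, and 278 rows ranked below them.

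Each of the 4 groups had 3 libraries. The labels give the tissue as roots and the genotype as WT or OX. They do not say what OX stands for, which gene or promoter it may concern, how many lines it covers, how old the plants were, how long aluminium was given, or whether replicate libraries stem from different plants. P-values therefore reflect library-to-library spread only, part of which could be technical. In whole roots, fewer cells of a type and less RNA per cell cannot be told apart.

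Aluminium dissolves as a toxic ion in acid soil, binds to the cell walls and membranes of the root tip and stops the root from growing. Plants are known to answer by releasing organic acids such as malate and citrate that bind the ion, by moving it into vacuoles, by altering the cell wall and by switching on a broad set of stress genes. A gene that is switched on by a stress in wild type and is already on in another line without that stress is often called constitutively expressed there. That is background and says nothing of the cause here.

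The deposited table names genes by identifier only. None of its identifiers could be paired with a name, so the genes are given by identifier, without a function, and the chromosome is read from the identifier. For the same reason the root tissue could not be checked against marker genes. Library totals ran from 15923413 to 18399566 counts. Over the 3 WT_CK libraries together the 150 genes had a median of 171.5 counts and at least 10. All 150 passed the filter on low counts, which a gene can do through its high groups alone.

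As a group, the 150 genes went from a trace of the root RNA to a few percent of it. Together they took 0.125%, 0.164% and 0.193% of all counts in WT_CK replicates 1, 2 and 3, and 2.84%, 2.54% and 2.08% in WT_Al. In OX_CK they took 0.696%, 1.35% and 1.00%, which is between the WT groups and overlaps neither. In OX_Al they took 2.71%, 3.11% and 3.11%, a range that overlaps that of WT_Al. The typical gene followed the same order. Its mean was a median of 3.32 CPM in WT_CK, 19.98 in OX_CK, 64.9 in WT_Al and 73.7 in OX_Al. The rule fixed that the OX_CK libraries and the WT_Al mean were above WT_CK. It also held OX_Al to a band around WT_Al, so this order is a description with no test.

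**Figure D1:**
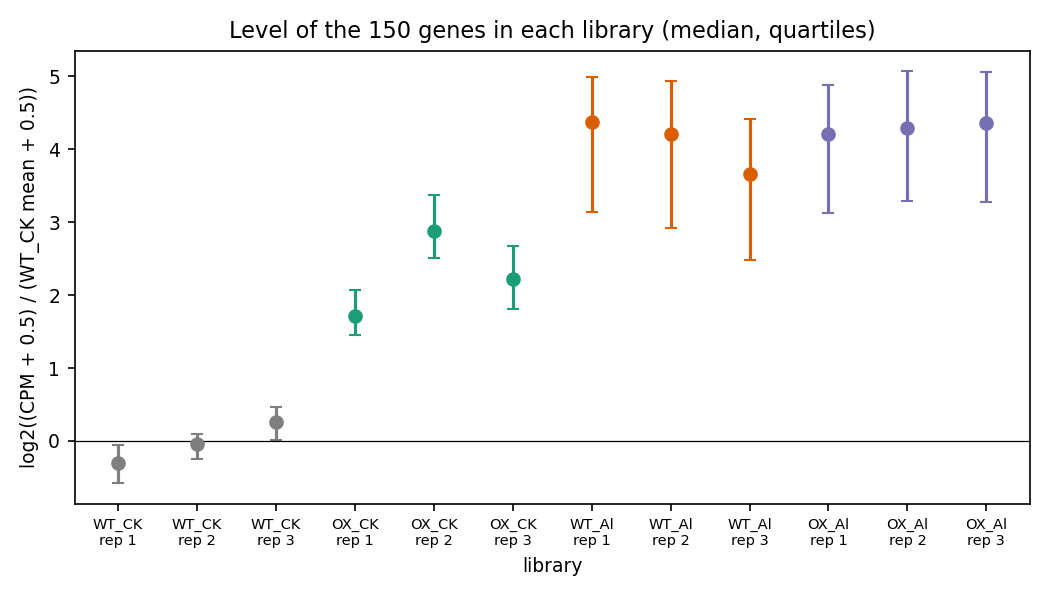
Level of the 150 genes in each of the 12 libraries, as the log2 ratio of CPM + 0.5 to the WT_CK mean + 0.5 (points are medians over the genes, bars the quartiles). The OX_CK medians lie at 1.71, 2.88 and 2.22, between the WT_CK libraries near 0 and the Al libraries at 3.66 to 4.37. The genes were chosen by these group means.

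Without aluminium, OX had already covered more than 50% of the log2 distance that WT covered with aluminium, for most of the genes. The ratio of OX_CK to WT_CK had a median of 5.06 and ran from 3.70 to 74.1, while the ratio of WT_Al to WT_CK had a median of 17.5 and ran from 3.70 to 147.8. The log2 of the first ratio was a median of 61.9% of the log2 of the second, with quartiles of 50.4% and 83.1%, and 113 genes had reached 50% or more. Without OX_CK replicate 2 the median share was 52.4%. Both ratios chose the genes and share the WT_CK libraries, so they are descriptions with no test. In all 150 genes the 3 WT_Al libraries and the 3 OX_Al libraries stood above the 3 WT_CK libraries. The score and the band made this likely beforehand, and the rule fixed the same order for OX_CK. The shares that follow are thus beside a description and not a test. Among the 37170 genes tested, 20.3% had WT_Al above WT_CK without overlap, 22% had OX_Al above WT_CK and 6.95% had OX_CK above WT_CK.

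For most of the genes OX_CK remained short of the aluminium level of WT. In 131 genes the OX_CK mean was below the WT_Al mean, and in 93 genes all WT_Al libraries were above all OX_CK libraries, where 20% of all genes tested had this order. The libraries of OX_CK and WT_Al overlapped in 56 genes. In 19 genes the OX_CK mean was at or above the WT_Al mean. Ordered by their means, 82 genes (54.7%) ran WT_CK, OX_CK, WT_Al, OX_Al from low to high, and 48 (32%) ran WT_CK, OX_CK, OX_Al, WT_Al. This comparison changes line and treatment together and was not tested.

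**Figure D2:**
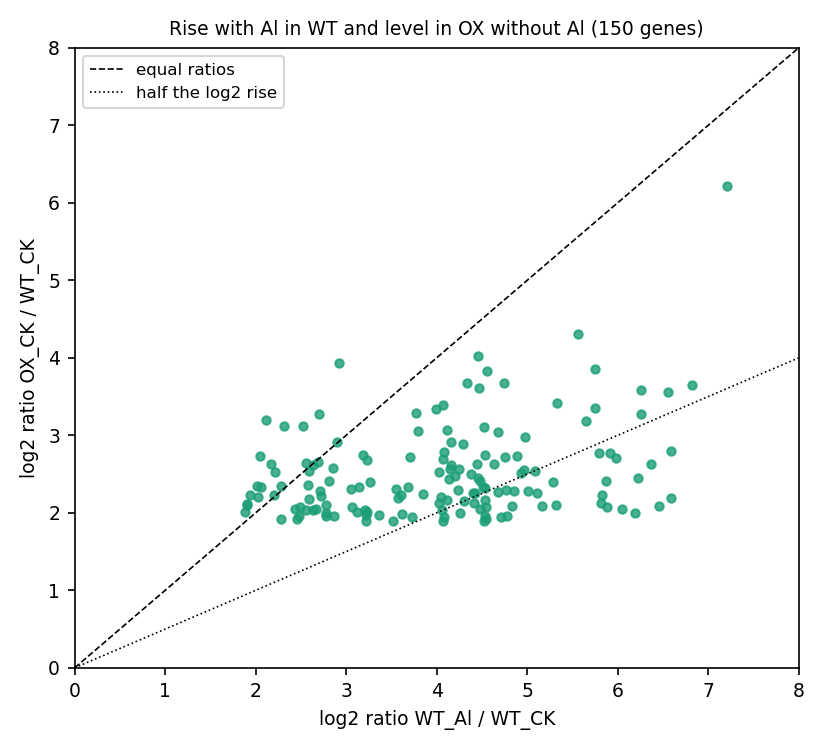
Log2 ratio of OX_CK to WT_CK against the log2 ratio of WT_Al to WT_CK, 1 point for each of the 150 genes. Points on the dashed line had equal ratios, and 131 points are below it. The lower edge of the cloud is set by the choice of genes by score.

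Glyma.13G203000, on chromosome 13, had by far the highest score, 74.1 against 19.8 for the next gene. It had 6.93, 11.8 and 11.7 CPM in WT_CK replicates 1, 2 and 3 and 1660.2, 1639.8 and 1417 in WT_Al. In OX_CK it had 468, 948 and 949.7 CPM, and in OX_Al 2370.3, 2999 and 2538. All 4 groups were apart from each other, with OX_CK about 74 times above WT_CK before any aluminium and OX_Al the highest. With aluminium in OX it rose by a log2 fold change of 1.90 ± 0.31 (SE, n = 3 against 3, edgeR adjusted p = 0.000572).

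Glyma.15G223900, on chromosome 15, was nearly silent in WT_CK, with 4, 2 and 11 counts or 0.237, 0.12 and 0.616 CPM. It had 54.3, 42.5 and 18.6 CPM in WT_Al, 8.23, 33.4 and 5.97 in OX_CK, and 33.1, 34.2 and 55.4 in OX_Al. OX_CK replicate 2 was at the level of the aluminium libraries and the other OX_CK libraries were below them. Its log2 fold change with aluminium in OX was 1.5 ± 0.60 (edgeR adjusted p = 0.0671). It was called without OX_CK replicate 2 (2.71, adjusted p = 0.00182) and with a replicate block (1.80, adjusted p = 0.0445), and over all alternatives the adjusted p ran from 0.00182 to 0.201.

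The most abundant of the 150 genes in OX_CK were both on chromosome 9 and were also expressed in WT_CK. Glyma.09G203500 had 273, 381 and 286 CPM in WT_CK and 2383, 2282 and 2161 in WT_Al. It had 1852, 2016 and 1749 CPM in OX_CK and 2849, 2818 and 2873 in OX_Al. Its OX_CK libraries were close together, just under those of WT_Al, and OX_Al was the highest group. The rise in OX was a log2 fold change of 0.77 ± 0.20 (edgeR adjusted p = 0.0101). Its values are not whole in any of the 12 libraries, so its reads may have been divided with a near-identical copy.

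Glyma.09G138100 had 171, 218 and 332 CPM in WT_CK and 1597, 1415 and 1328 in WT_Al. It had 695, 1403 and 1181 CPM in OX_CK and 1887, 2197 and 2076 in OX_Al. OX_CK replicate 2 reached into the range of WT_Al and replicate 1 was the lowest of its group. The rise in OX was a log2 fold change of 1.07 ± 0.30 (edgeR adjusted p = 0.0163). The call ended without OX_CK replicate 1 (adjusted p = 0.0577) or OX_Al replicate 2 (0.0547), and the adjusted p ran from 0.00176 to 0.0577 over the alternatives.

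**Figure D3:**
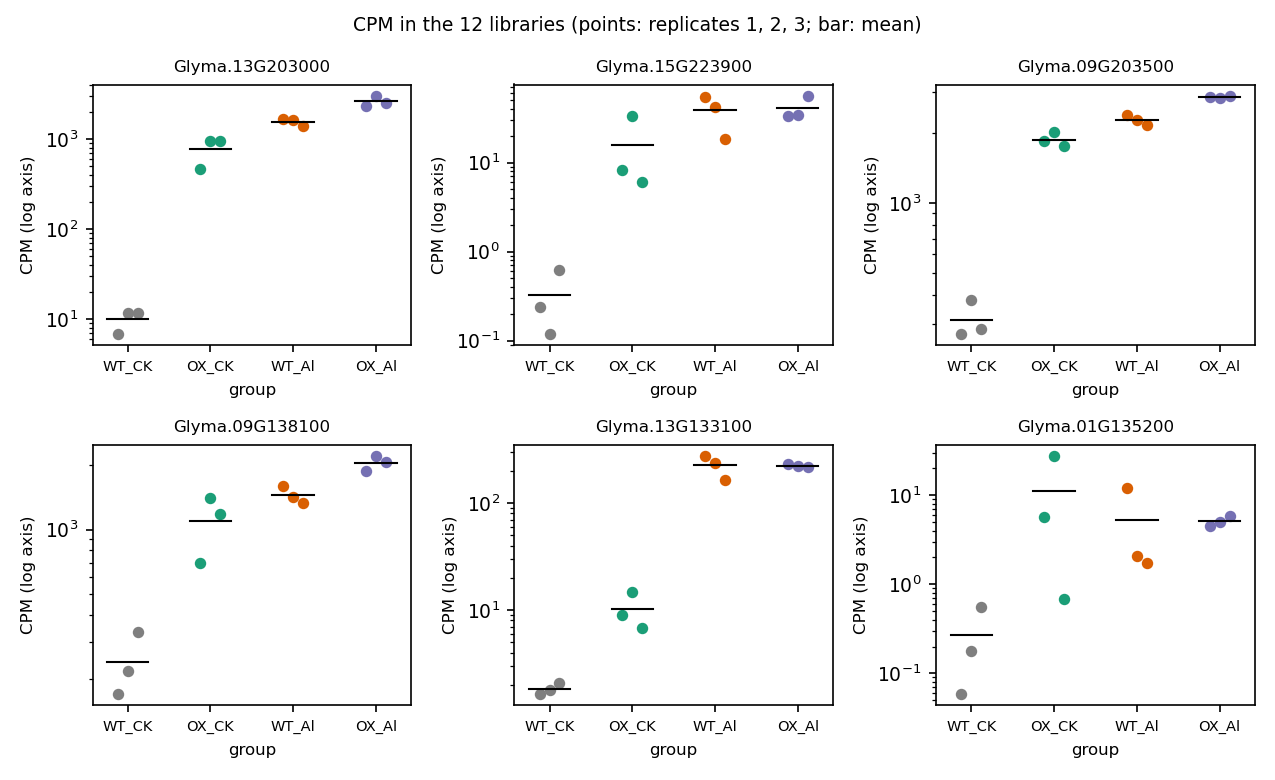
CPM of 6 genes in every library, on log axes, with replicates 1, 2 and 3 from left to right in each group and a bar at the mean. WT_CK is the lowest group in all 6, and the 3 OX_CK points are spread most in Glyma.01G135200, from 0.682 to 27.3 CPM.

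Aluminium raised most of the 150 genes in OX as well, from the higher start. The rule never set OX_Al against OX_CK, but it used the means of both groups, so the counts that follow are descriptions. Of the 150 genes, 109 (72.7%) rose with aluminium in OX and 0 fell (edgeR quasi-likelihood test, adjusted p under 0.05). Over all 37170 genes tested, 21.2% rose and 15.2% fell. At an unadjusted p under 0.05 the number that fell was also 0, and DESeq2 called 111 higher and 0 lower. Of the 41 genes not called, 32 had a log2 fold change above 0 and 9 below. The median log2 fold change in OX was 1.88 over the 150 genes and -0.02 over all genes tested.

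Other rows that aluminium raised in WT give a nearer background than all genes. There were 1637 other rows with an OX_CK mean of 5 CPM or more, a WT_Al to WT_CK ratio of 2 or more and the same band for OX_Al to WT_Al, the 278 lower-ranked rows included. Of these, 88.1% rose with aluminium in OX, a larger share than the 72.7%, and their median log2 fold change was 1.37. The 278 rows alone had 72.7% called higher and a median of 1.45. Called lower were 2 of the 1637 rows (0.122%) and 2 of the 278 (0.719%). Falls were thus nearly absent in these other rows too, and their lack was not particular to the genes described. These shares were not tested against each other, since the OX_CK level that chose the rows enters the fold change.

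The size of the ratio was smaller in OX than in WT by the way the genes were chosen. The mean of OX_Al was a median of 3.23 times that of OX_CK, with quartiles of 1.84 and 5.94, beside the 17.5 in WT. It was 2 times or more in 107 genes, and the OX_Al mean was below that of OX_CK in 11. In 115 genes all OX_Al libraries were above all OX_CK libraries, where 21.8% of genes tested had this order, and in 34 genes the groups overlapped. Of the 131 genes whose OX_CK mean was below the WT_Al mean, 107 were called higher with aluminium in OX, and the median ratio was 3.94. Of the 19 genes at or above it, 2 were called higher, with a median ratio of 0.987. The split brings this about in part: with OX_Al held to at most 2 times WT_Al, a gene with OX_CK at or above WT_Al cannot have OX_Al much over 2 times OX_CK.

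**Figure D4:**
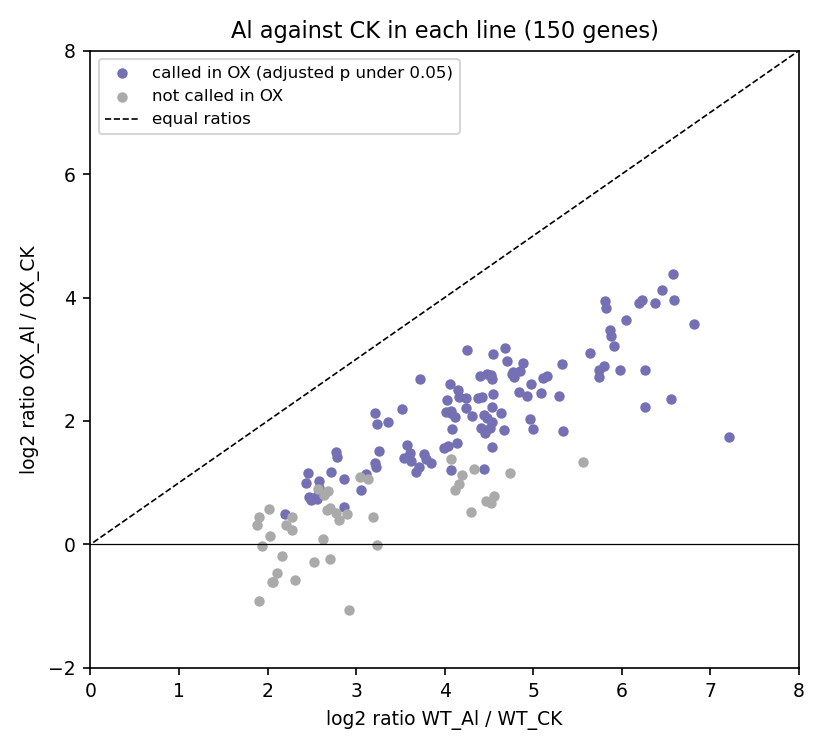
Log2 ratio of OX_Al to OX_CK against the log2 ratio of WT_Al to WT_CK for the 150 genes, with the 109 genes called in OX in colour. All points are below the dashed line of equal ratios, which the choice of genes brings about.

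Glyma.13G133100, on chromosome 13, had the largest ratio of OX_Al to OX_CK, 20.9. It had 1.66, 1.80 and 2.07 CPM in WT_CK and 273, 236 and 165 in WT_Al. It had 8.98, 14.9 and 6.77 CPM in OX_CK and 234, 221 and 215 in OX_Al. OX_CK was above WT_CK but far under both aluminium groups, which overlapped. The rise in OX was a log2 fold change of 4.60 ± 0.32 (edgeR adjusted p = 1.05e-06).

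Glyma.01G135200, on chromosome 1, had the smallest ratio of OX_Al to OX_CK, 0.478. It had 0.0592, 0.18 and 0.56 CPM in WT_CK and 12.1, 2.06 and 1.72 in WT_Al. It had 5.65, 27.3 and 0.682 CPM in OX_CK and 4.46, 5.07 and 5.77 in OX_Al. OX_CK replicate 2 was the highest of all libraries, replicate 1 was above all WT_CK libraries and within the range of WT_Al, and replicate 3 was just above the highest WT_CK library. The log2 fold change with aluminium in OX was -1.01 ± 0.98 (edgeR adjusted p = 0.443). Without OX_CK replicate 2 it was 0.89 (adjusted p = 0.495), and over the alternatives the adjusted p ran from 0.15 to 0.773.

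MSTRG.17840, a locus without a Glyma identifier and picked out after its values were seen, was the 1 gene whose OX_CK libraries were all above both the WT_Al and the OX_Al libraries. It had 0.711, 0.599 and 1.23 CPM in WT_CK and 7.05, 6.89 and 4.65 in WT_Al. It had 10.7, 10.9 and 12.1 CPM in OX_CK and 6.05, 6.16 and 9.94 in OX_Al. In OX the log2 fold change with aluminium was -0.44 ± 0.27 (edgeR adjusted p = 0.216), so the lower level under aluminium was not called. Among genes tested, 33.2% had all OX_CK libraries above OX_Al and 26.9% had them above WT_Al.

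Under aluminium the rule required only that the OX_Al mean be between 0.5 and 2 times the WT_Al mean. The ratio of OX_Al to WT_Al had a median of 1.15 and ran from 0.508 to 1.99. Over all 24880 rows with an OX_CK mean of 5 CPM or more its median was 0.94. The OX_Al mean was above the WT_Al mean in 98 genes and below it in 52. The libraries of the lines overlapped in 98 genes. All OX_Al libraries were higher in 44 genes (29.3%) and all WT_Al libraries in 8 (5.33%). Among all genes tested, 11.9% had OX_Al above WT_Al without overlap and 15.3% the opposite.

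The 3 OX_CK libraries did not carry the genes equally. OX_CK replicate 2 held the highest value of its group in 118 genes (78.7%) and replicate 1 the lowest in 111 (74%). Replicate 2 was above replicate 1 in 148 genes, by a median of 2.35 times. In the 1637 other aluminium-raised rows replicate 2 was the highest in 37.4%, and above replicate 1 by a median of 1.20 times. In all 24880 rows with an OX_CK mean of 5 CPM or more it was the highest in 21.9%, and its median ratio to replicate 1 was 0.95. The rule used the values of these libraries, so the order is a description with no test.

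Libraries of the other groups were also ordered alike across the genes. WT_CK replicate 3 was the highest of its group in 100 genes (66.7%) and WT_CK replicate 1 the lowest in 93 (62%), and the other aluminium-raised rows had nearly the same shares, 65.3% and 64.9%. WT_Al replicate 3 was the lowest of its group in 133 genes (88.7%), against 67% of the other aluminium-raised rows and 35.7% of all rows. OX_Al replicate 1 was the lowest in 98 genes (65.3%), against 60.5% and 32.2%. In the 278 lower-ranked rows alone, WT_Al replicate 3 was the lowest in 77% and OX_Al replicate 1 in 60.4%. In WT_CK and OX_Al the order of the libraries was thus much the same in the other aluminium-raised rows and not particular to the 150 genes. The rule used these libraries, and whether the genes varied together was not tested.

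**Figure D5:**
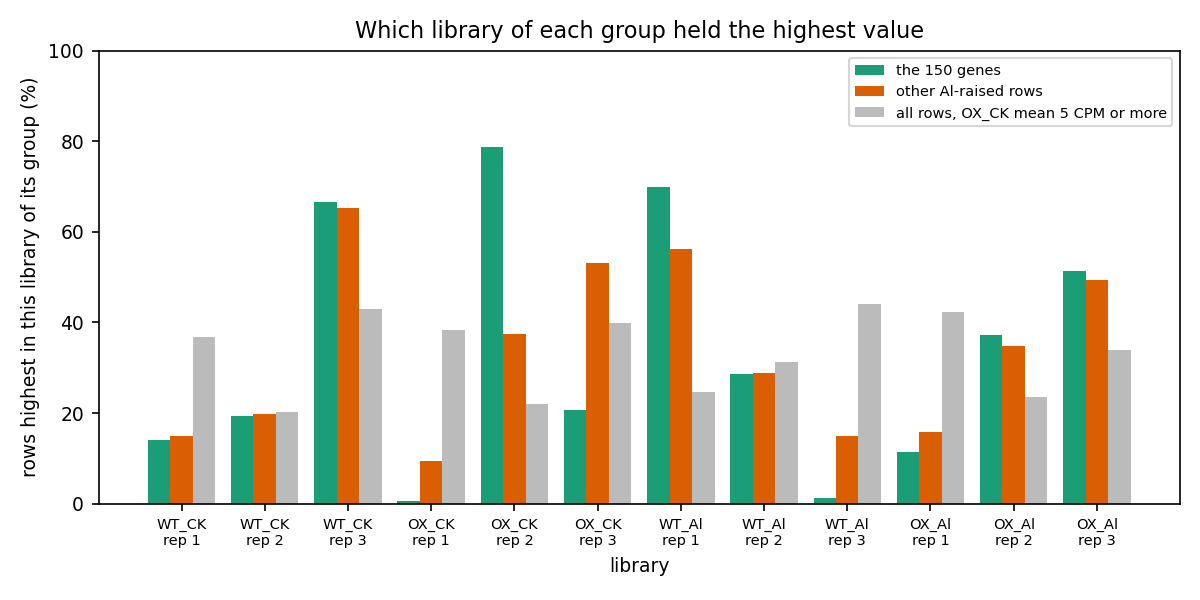
Share of rows (percent) whose highest value in a group was in the library shown, for the 150 genes, the 1637 other aluminium-raised rows and all 24880 rows with an OX_CK mean of 5 CPM or more. OX_CK replicate 2 was the highest in 78.7% of the 150 genes, against 37.4% and 21.9%. In the 278 lower-ranked rows, not drawn apart, the share was 64.7%.

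Over the 150 genes, OX_CK had the widest spread between its libraries of the 4 groups. The coefficient of variation over 3 libraries, the SD as a percent of the mean, had a median of 46.4% in OX_CK, 34.6% in WT_CK, 24.8% in WT_Al and 11.02% in OX_Al. In the other aluminium-raised rows it was 23.6%, 21.8%, 15.3% and 10.9%, and in all rows 15.6%, 16.6%, 12.5% and 10.4%. The 278 lower-ranked rows alone had 34.9%, 26.3%, 22.3% and 12.1%. The medians of the 150 genes were thus above those of the other rows in OX_CK, WT_CK and WT_Al, and near them in OX_Al. In WT_CK the levels were not alike. The median mean was 3.32 CPM in the 150 genes, 12.6 in the other aluminium-raised rows and 20.2 in all rows. In OX_CK it was 19.98, 17.0 and 19.4 CPM in these sets, and in WT_Al 64.9, 49.4 and 18.9. Counting error is larger at low levels, and the 150 genes were at the lower level in WT_CK but not in OX_CK or WT_Al. The rule used these libraries, so the spreads are descriptions with no test.

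Whether a library that had no part in the choice showed the same pattern was asked by leaving out each library, choosing 150 genes again by the same rule from the other 11, and reading the library left out. OX_CK replicates 1, 2 and 3, when left out, were above the highest WT_CK library in 141, 150 and 145 of their 150 genes. Among all rows with 5 CPM or more in the kept OX_CK libraries, 22.8%, 20.2% and 19.5% were. The median ratio of the left-out library to the WT_CK mean was 3.18 for replicate 1, where the kept OX_CK libraries gave 6.10. It was 6.03 against 3.88 for replicate 2 and 3.98 against 5.45 for replicate 3. The left-out library was thus at 2 times or more the WT_CK mean in 132, 149 and 138 genes. The WT_CK libraries it was set against had taken part in the choice.

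WT_CK libraries were read in the same way. Left-out WT_CK replicates 1 and 2 were below the lowest OX_CK library in 147 and 148 of their 150 genes, and replicate 3 in 125, where 21.5%, 20.5% and 33.9% of all rows were. With replicate 3 left out, the kept libraries gave a median OX_CK to WT_CK ratio of 6.33, and replicate 3 itself gave 4.14. Each WT_Al library, when left out, was 2 times or more above the WT_CK mean in all 150 of its genes, where 7.41% to 8.90% of all rows were. Left-out OX_Al libraries were within 0.5 to 2 times the WT_Al mean in 141 to 147 genes, or 94% to 98%, beside 95.4% to 96.5% of all rows, a share near that background. Here too the libraries that a left-out library was set against had taken part in the choice. These counts are therefore descriptions with no test.

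Without OX_CK replicate 2 the level in OX_CK was lower. The rule had asked replicates 1 and 3 as well to be above every WT_CK library, so that they were above WT_CK was fixed by the choice of genes, and the sizes are a description. The OX_CK mean over replicates 1 and 3 was a median of 4.01 times WT_CK over the same 150 genes, and 2 times or more in all of them. The share of the log2 rise of WT was then a median of 52.4%, and the median ratio of OX_Al to OX_CK was 4.30. When the rule itself was applied without replicate 2, 338 rows met it, and 119 of its 150 highest were among the 150 genes.

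The genes were spread over the genome. All 20 chromosomes held between 2 and 13 of them, with 13 on each of chromosomes 3 and 10 and 2 on each of chromosomes 14 and 20. Of rows with an OX_CK mean of 5 CPM or more, 0.603% were among the 150 genes, and the share by chromosome ran from 0.186% on chromosome 20 to 1.17% on chromosome 3. There were 4 pairs of the genes within 5 identifiers of each other on a chromosome, and 2 of these pairs were direct neighbours. They were picked out by position, after the values were seen.

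The direct neighbours Glyma.07G139700 and Glyma.07G139800 had much the same profile. The first had 3.53 ± 1.28 CPM in WT_CK, 34.2 ± 33.4 in OX_CK, 92.0 ± 19.9 in WT_Al and 54.97 ± 0.73 in OX_Al (SD, n = 3). The second had 6.38 ± 2.86, 37.7 ± 33.8, 126 ± 24.9 and 83.3 ± 5.56 CPM in these groups. Neither had a whole value in any of the 12 libraries, so reads may have been divided between near-identical copies and the pair may not be independent. In both, the SD in OX_CK was nearly as large as the mean.

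Glyma.13G085800 and Glyma.13G085900, the other direct neighbours, had whole values throughout. The first had 4.48 ± 2.70 CPM in WT_CK, 23.7 ± 14 in OX_CK, 143 ± 27.7 in WT_Al and 168 ± 17.0 in OX_Al (SD, n = 3). The second had 1.53 ± 0.708, 13.4 ± 5.85, 112.5 ± 32 and 102.7 ± 8.84 CPM. Both were well short of the aluminium level in OX_CK. The pairs with 1 or 2 genes between them were Glyma.08G150900 with Glyma.08G151100 and Glyma.01G135200 with Glyma.01G135500.

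The lower end of the list was not marked by a break. Glyma.17G147500 and Glyma.08G109500 were the last inside, both with a score of 3.70, and Glyma.03G042400 and Glyma.06G145300 the first outside, both with 3.68. The last inside had 4.94 ± 0.923 CPM in WT_CK, 21.5 ± 9.62 in OX_CK, 19.6 ± 4 in WT_Al and 26.7 ± 6.21 in OX_Al. The first outside had 3.97 ± 3.12, 15.96 ± 4.97, 26.1 ± 0.631 and 33.1 ± 5.51 CPM. Over the 278 rows below, the median ratio of OX_CK to WT_CK was 2.62 and that of WT_Al to WT_CK 4.99.

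Of the 150 genes, 149 had Glyma identifiers and 98 had whole values in every library. The 52 with a value that is not whole made up 34.7%, against 43.4% of the genes tested. WT_CK was under 1 CPM in 26 genes, and WT_Al was at 100 CPM or more in 55.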

How the data were processed

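RNA-seq libraries of soybean roots, 3 in each of 4 groups, were grouped by line and treatment from the labels. The table that the authors deposited holds estimated counts, per the file headers, with no scaling of libraries. The submitters' processing notes name HTSeq 0.6.0, TopHat2, HISAT2 2.1.0, Bowtie2 2.2.3 and CASAVA without their roles. The strand setting, the annotation, the build and the origin of the decimals are not stated there, so overlapping or antisense genes cannot be told apart. The 8 rows of stray text were left out. None of 56877 identifiers matched the 59048 genes of the Glycine_max_v4.0 reference table, so gene lists and marker lists defined by words in descriptions could not be built.

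CPM was the count over the library total. For the test of OX_Al against OX_CK, values were rounded to whole counts, since some have decimals. They were filtered with filterByExpr (minimum count 10, minimum total 15), scaled by TMM and fitted with 1 mean per group in edgeR 4.0.16 (R 4.3.3). The test was the robust quasi-likelihood F-test, two-sided, with Benjamini-Hochberg adjustment over 37170 genes. The SE is approximate: the absolute log2 fold change divided by the root of the F statistic. On simulated data for OX_Al against OX_CK, run on 37170 genes, 40% of 2-fold and 98% of 4-fold changes were recovered. There were 11 false calls beside 138 true ones. The real data gave far more calls, 7888 higher and 5660 lower, so the adjustment for many tests was not alike. The genes described also varied more in OX_CK, with a median coefficient of variation of 46.4%. It was 15.6% in all rows with an OX_CK mean of 5 CPM or more. The recovery rates therefore cannot be taken as those for the genes described. DESeq2 1.42.0 was an alternative. Library totals limit precision by counting error only. Without gene names, the genes named were the 2 of highest score, the 2 most abundant in OX_CK, those of largest and smallest OX_Al to OX_CK ratio, and the 2 on either side of the end of the list; the others are said to be picked out later. The members and lists were chosen with earlier results of these data known.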

Additional observations from a re-analysis of the deposited data

Results flagged for a closer look

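The libraries of MSTRG.17840 were ordered in opposite ways in the lines: every WT_Al library was above every WT_CK library, and every OX_Al library was below every OX_CK library, with a ratio of OX_Al to OX_CK of 0.672. The lower level in OX_Al was not called (edgeR adjusted p = 0.216), and 33.2% of all genes tested had OX_CK above OX_Al without overlap. That the lines differ in this was not tested, and the rule fixed both the rise in WT and the high level in OX_CK.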

How the results depend on the processing

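Under the other settings for OX_Al against OX_CK, which included another scaling, no filter, DESeq2, only the OX groups fitted, values rounded down (chosen after seeing the data) and an adjusted p under 0.01, 94 to 111 of the 150 genes were called higher and 0 lower. The 12 fits that left out 1 library called 100 to 132 genes higher and 0 lower. Of the 109 genes, 99 remained called in all 12. With the replicate block 115 were called higher and 0 lower. The deviations of same-numbered OX_CK and OX_Al libraries correlated at 0.20, -0.004 and 0.16, so the numbers were not taken to pair them. Scaling by library totals alone lowered the log2 fold changes by a median of 0.15, and the median over the 150 genes was then 1.72. The fold change of Glyma.01G135200 ran from -1.57 (without OX_CK replicate 3) to 0.89 (without OX_CK replicate 2) when 1 library was left out. The rule was met by 428 rows, by 275 rows among those with whole values only, since other rows are then left out, and by 338 to 648 rows with 1 library left out, the 648 without WT_CK replicate 3. It was met by 453 rows with TMM-scaled CPM and by 442 and 405 with 0.1 and 1 CPM added. Of the 150 highest rows, 146, 142 and 140 were then among the 150 genes.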
